A study of Mus musculus with 12 samples.

Results

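The transcription factors that commit a blood progenitor to the B lineage were followed here in mouse pre-B leukemia cells after stabilization of β-catenin, with and without editing of Ikzf1 and Ikzf3. The 8 genes were chosen by symbol: Tcf3, Tcf12, Ebf1, Foxo1, Pax5, Foxp1, Pou2f1 and Pou2af1. All 8 were among the 12151 genes of the deposited table, and no filter on low values was applied to them. The rule names genes and uses no measured value, but it was set with earlier results of these data known.

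The 12 RNA libraries came from bone marrow pre-B cells of mice aged 6 to 12 weeks, cultured with IL-7 and transformed with the BCR-ABL1 oncogene, in 4 groups of 3 replicates. Every group carried the genotype Ctnnb1Ex3fl/+, in which Cre removes exon 3 of 1 Ctnnb1 allele; this exon encodes the residues that mark β-catenin for degradation. Cells labelled WT had received nontargeting guides (sgNTC) with Cas9, and those labelled KO had received guides against Ikzf1 and Ikzf3, which encode the zinc finger proteins Ikaros and Aiolos. Lines grown from single cells were then transduced with a GFP vector for ERT2 alone or for Cre-ERT2, sorted for GFP and given 4-hydroxytamoxifen (4-OHT), so that the groups are ERT2 WT and Cre-ERT2 WT, and in the edited background ERT2 KO and Cre-ERT2 KO. The labels give day 1 after 4-OHT, in wording about ChIP-seq. Presence of active Cre and stabilization of β-catenin cannot be told apart in the Cre-ERT2 groups. Below, a difference or change with β-catenin is shorthand for Cre-ERT2 minus ERT2 and does not name the agent. No label assigns a single-cell line to a library, so editing and differences between lines cannot be told apart in KO against WT. The labels do not say whether replicates are separate lines, cultures or days, so the P values measure the spread between these libraries, which may be technical.

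B cell commitment is built by factors that act on each other's genes. The E proteins Tcf3 (E2A) and Tcf12 (HEB) bind E-box motifs and, with Foxo1, activate Ebf1. Ebf1 opens B lineage genes and activates Pax5, which switches on B cell signaling genes and silences genes of other lineages. Foxo1 and Foxp1 act on the recombinase genes Rag1 and Rag2, and Pou2af1 (OBF-1) is the B cell coactivator of the octamer-binding proteins Pou2f1 (Oct-1) and Pou2f2 (Oct-2). β-catenin has no DNA-binding domain of its own and is best known as the partner of TCF/LEF proteins, which are unrelated to the E proteins that share the Tcf name.

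The guides below define the KO groups, and the promoters belong to Pou2af1 and Tcf3, which were lower in KO cells with each vector, and to Pax5, which was lower with β-catenin in both backgrounds. The Ikzf1 guide matched chr11:11707798-11707817 (GRCm38, minus strand) in coding exon 3 of Ikzf1 (in 5 of its 6 annotated transcripts), and the Ikzf3 guide matched chr11:98490523-98490542 (minus strand) in coding exon 4 of Ikzf3 (in 1 of 4), each next to a GGG PAM.
Ikzf1 guide: ctggagtgtcactgactggg
Ikzf3 guide: attatgaagccggagcccat
The promoters are the 250 bases before a transcription start annotated by RefSeq on GRCm38.p6, read along the gene, with the Ikaros core GGGAA in capitals on either strand (TTCCC on the minus strand). They lie at chr9:51213440-51213689 (Pou2af1, plus strand), chr10:80433636-80433885 (Tcf3, minus strand) and chr4:44710695-44710944 (Pax5, minus strand).
Pou2af1 promoter: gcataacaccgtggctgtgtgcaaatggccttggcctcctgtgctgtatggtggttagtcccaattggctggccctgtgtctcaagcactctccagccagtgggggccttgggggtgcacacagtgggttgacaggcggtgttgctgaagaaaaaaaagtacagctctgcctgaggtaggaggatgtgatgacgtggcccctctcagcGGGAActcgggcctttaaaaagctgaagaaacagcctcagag
Tcf3 promoter: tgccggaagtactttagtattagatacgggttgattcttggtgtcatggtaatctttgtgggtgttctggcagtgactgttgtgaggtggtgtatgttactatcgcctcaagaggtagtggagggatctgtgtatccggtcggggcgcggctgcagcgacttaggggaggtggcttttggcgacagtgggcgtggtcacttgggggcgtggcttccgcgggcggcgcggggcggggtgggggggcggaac
Pax5 promoter: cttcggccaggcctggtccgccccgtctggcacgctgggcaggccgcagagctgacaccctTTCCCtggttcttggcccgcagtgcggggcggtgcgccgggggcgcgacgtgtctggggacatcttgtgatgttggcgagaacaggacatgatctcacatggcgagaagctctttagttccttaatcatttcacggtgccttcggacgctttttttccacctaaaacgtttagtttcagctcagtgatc
The Pou2af1 and Pax5 windows each hold 1 GGGAA, and these letters are not in the Tcf3 window. Over all annotated starts of the 8 genes, 7 of 15 windows hold GGGAA on either strand, beside 56.2% of 32851 such windows of the genome. The TCF/LEF core CTTTGA, searched on both strands, is in 2 of the 15 windows, beside 13.8%, and in none of the 3 printed. The E-boxes CAGGTG and CAGCTG, which read as E protein sites, are in 1 and 2 of the 15 windows, beside 17.2% and 13%. These are counts of letters in short windows and are not binding data.

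Values are the authors' normalized log2 expression levels, and a difference is that of 2 group means on the log2 scale, tested with limma over all 12151 genes and called at an adjusted p under 0.05. The library medians lay between 9.06 and 9.11, and the median SD between replicates of a group was 0.026 to 0.040 for the 2492 genes with means of 11 to 15, where all 8 factors lie. The depth of the libraries is unknown, so replicates alone give the precision. In the libraries labelled KO the targeted genes did not both have less mRNA: Ikzf1 was higher by 1.01 (ERT2) and 0.90 (Cre-ERT2), and Ikzf3 was lower by 0.65 and 0.70. Gene-level mRNA does not show whether the proteins are lost. The paper reports a western blot check of Ikaros factor deletion in its lines grown from single cells, which no label assigns to a library. KO below means the libraries labelled KO. The pre-B identity of the cells was checked with 12 marker genes fixed for it, all in the table, whose summed unlogged levels were 125320 to 125880 in ERT2 WT, 130660 to 132240 in Cre-ERT2 WT, 80283 to 80654 in ERT2 KO and 81804 to 82621 in Cre-ERT2 KO libraries. This sum did not overlap between WT and KO groups, and since these are bulk samples, fewer cells of a type and less RNA per cell cannot be told apart. An unlogged sum weighs most on highly expressed markers such as Cd79a (means 15.10 in ERT2 WT and 14.31 in ERT2 KO) and Cd24a (15.01 and 13.94). The markers did not all go 1 way: in ERT2 KO cells 9 of 12 were lower, beside 29.3% of all genes. Rag1 (0.32), Rag2 (0.38) and Cd22 (0.46) were higher. The table lists 3 of 12 myeloid markers (Cebpb, Itgam and Lyz2), whose sum was 226 to 257 in WT and 386 to 470 in KO libraries. It lists 1 of 10 T cell markers, the kinase gene Lck. Its level was 449 to 483 in ERT2 WT, 807 to 849 in Cre-ERT2 WT, 169 to 177 in ERT2 KO and 213 to 221 in Cre-ERT2 KO libraries. Lck was called higher with Cre-ERT2 by 0.81 in WT and 0.33 in KO cells. Of 6 NK cell markers the table lists Klrb1c and Nkg7, which was higher in KO libraries by 2.03 (ERT2) and 1.90 (Cre-ERT2). Erythroid markers were represented by 1 of 7, the transferrin receptor gene Tfrc, which was lower in KO cells (-0.92 and -0.75), and the sum of 6 of 8 plasma cell markers was 16542 to 17215 in WT and 11582 to 13295 in KO libraries. Within the myeloid list Lyz2 was higher in KO cells (0.99 and 1.23), Itgam was lower (-0.15 and -0.18), and Cebpb was lower without Cre (-0.59) with a difference of 0.029, not called, with Cre. Klrb1c had KO differences of -0.014 and -0.013 that were not called. The part of these other-lineage genes and of the lower pre-B sum in the results below was not tested.

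**Figure D1:**
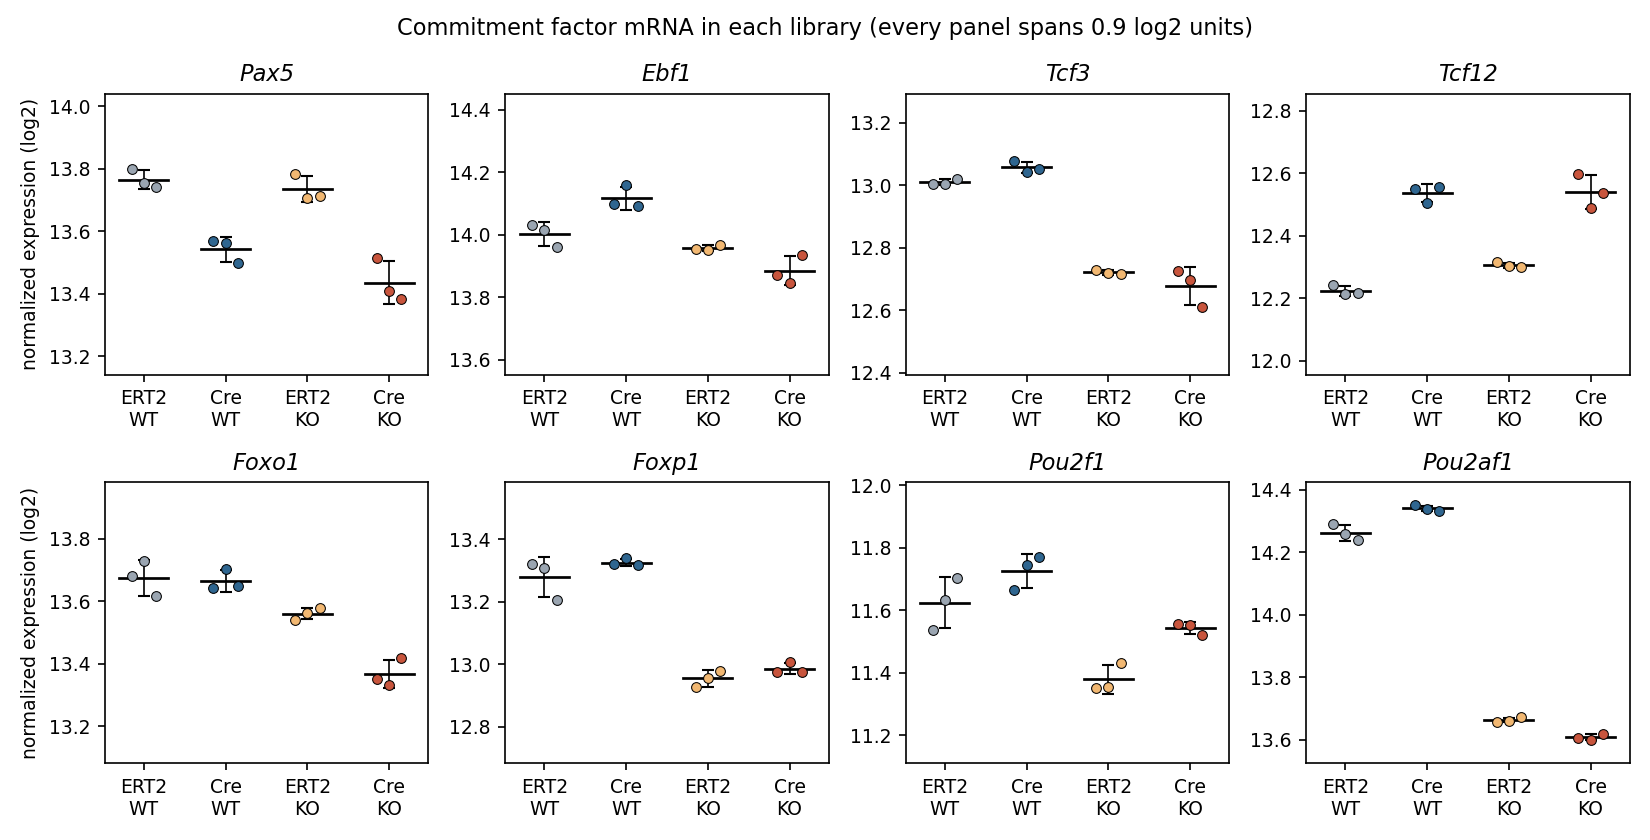
Normalized log2 expression of the 8 commitment factors in each of the 12 libraries. Points are libraries, horizontal bars are group means and error bars are the SD (n = 3); every panel spans the same log2 range, which does not start at 0. Pou2af1, Tcf3 and Foxp1 separate WT from KO, whereas Pax5 and Tcf12 separate ERT2 from Cre-ERT2.

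The 8 factors fell into different patterns across the 4 groups. Pax5 was lower and Tcf12 higher with Cre-ERT2 than with ERT2 in both backgrounds. Pou2af1, Foxp1, Tcf3, Pou2f1 and Foxo1 were lower in KO than in WT cells, with and without Cre, except that the Foxo1 call without Cre ended under quantile normalization. Ebf1, Foxo1 and Pou2af1 responded to Cre-ERT2 differently in the 2 backgrounds, although the Foxo1 call ended on omission of any of 10 of the 12 libraries. The largest difference of any factor was -0.73, for Pou2af1.

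β-catenin in WT cells called 4 of the 8 factors, 3 higher and 1 lower, beside 11.9% of all genes (5.93% higher and 5.95% lower). The groups did not overlap for 5 of the 8, beside 31.1% of all genes. β-catenin in KO cells also called 4, Tcf12 and Pou2f1 higher and Pax5 and Foxo1 lower, beside 12.6% (7.27% higher and 5.33% lower), with no overlap for 6 of the 8, beside 28.3%. The KO difference was called for 6 factors in ERT2 libraries (1 higher, 5 lower), beside 59.0% of genes (29.8% higher and 29.3% lower), and for 7 in Cre-ERT2 libraries (all lower), beside 58.9% (30.4% higher and 28.6% lower). Groups did not overlap for 6 factors in each of these, beside 65.5% and 63.6% of genes. With 59.0% and 58.9% of all genes called, the KO counts by themselves say little about the factors, and the sizes are given below. With each library centred on its median, the called genes split 2866 higher to 4747 lower in ERT2 and 2983 to 4789 in Cre-ERT2 libraries, instead of 3616 to 3559 and 3688 to 3473; the factors then split 0 higher to 6 lower and 0 to 7. Under quantile normalization the called genes split 3370 to 3906 and 3411 to 3986, and the factors 1 to 4 and 0 to 6. The median difference of the 8 factors was -0.18 in ERT2 and -0.27 in Cre-ERT2 libraries, where the median over all genes was 0.0016 in each. Quantile normalization made these factor medians smaller, at -0.13 and -0.20. With β-catenin the median of the 8 was 0.063 in WT and -0.050 in KO cells, beside 2.2e-05 and -0.00041 over all genes. Exact 2-sided permutation tests of 3 against 3 libraries cannot give a p below 0.1, which they gave for every factor without overlap.

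**Figure D2:**
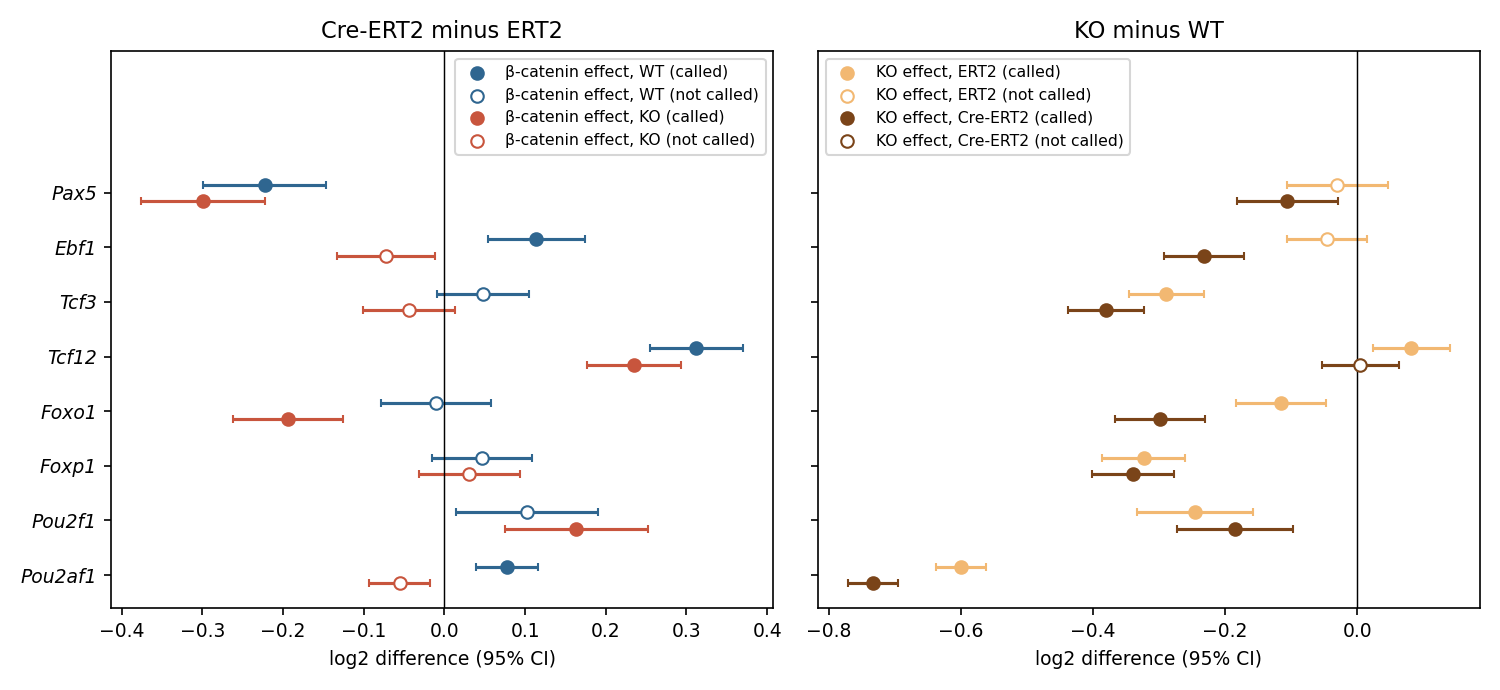
Log2 differences of the 8 factors with 95% confidence intervals from limma, for Cre-ERT2 minus ERT2 (left) and KO minus WT (right). Filled points were called at an adjusted p under 0.05 over all genes; Pou2af1 has the largest KO difference (-0.60 and -0.73), and Tcf12 and Pax5 the largest β-catenin differences, in opposite directions.

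Tcf3 (ENSMUSG00000020167, chr10:80409514-80433647, GRCm38, minus strand) encodes the E2A proteins that begin the B cell program. Its log2 levels were 13.00, 13.00 and 13.02 in ERT2 WT, 13.08, 13.04 and 13.05 in Cre-ERT2 WT, 12.73, 12.72 and 12.71 in ERT2 KO and 12.72, 12.70 and 12.61 in Cre-ERT2 KO libraries. All 6 KO values lay below all 6 WT values. Tcf3 was lower in KO cells by 0.29 (difference -0.29, SE 0.026, adjusted p = 9.25e-07) without Cre and by 0.38 (difference -0.38, SE 0.026, adjusted p = 6.31e-08) with Cre. That is 18.1% and 23.2% less on the unlogged scale. β-catenin gave differences of 0.048 (95% CI -0.0097 to 0.10) in WT and -0.044 (-0.10 to 0.013) in KO cells, neither called. Cre-ERT2 WT was the highest group and ERT2 WT the next, and the 2 KO groups overlapped below them.

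Tcf12 (ENSMUSG00000032228, chr9:71842688-72111871, minus strand) encodes HEB, the E protein that pairs with E2A. It stood at 12.24, 12.21 and 12.22 in ERT2 WT and at 12.55, 12.50 and 12.56 in Cre-ERT2 WT libraries. KO libraries gave 12.32, 12.30 and 12.30 with ERT2 and 12.60, 12.49 and 12.53 with Cre-ERT2. Thus all 6 Cre-ERT2 values exceeded all 6 ERT2 values. The rise with β-catenin was 0.31 in WT (SE 0.027, adjusted p = 8.37e-06, or 24.2% unlogged) and 0.23 in KO cells (SE 0.027, adjusted p = 7.75e-05, 17.7%), and these were not shown to differ (-0.077, SE 0.038, adjusted p = 0.322, 95% CI -0.16 to 0.0047). Only 1.22% of all genes had a larger absolute difference in WT cells. In ERT2 libraries Tcf12 was higher in KO than in WT cells by 0.082 (adjusted p = 0.0185), a call that ended without ERT2 WT replicate 2 (0.076, adjusted p = 0.0569) or without ERT2 KO replicate 1 (0.077, adjusted p = 0.0543). It was 0.13 under quantile normalization (adjusted p = 0.00150) and 0.050 with median centring (adjusted p = 0.129). Among Cre-ERT2 libraries the KO groups and WT groups overlapped, with a difference of 0.0046 (adjusted p = 0.895) that turned to -0.029 when libraries were centred on their medians.

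Paralogs were in the table for the E protein, Foxo, Foxp and octamer families, and were set beside the factors. Tcf4 (E2-2), the remaining E protein gene, averaged 11.40 ± 0.064 in ERT2 WT and 12.17 ± 0.032 in ERT2 KO libraries (SD, n = 3). Tcf4 was thus higher in KO cells by 0.77 without Cre and by 0.89 with Cre, in the opposite direction to Tcf3, and its β-catenin differences (-0.074 and 0.045) were not called. Genes that encode partners and inhibitors of E proteins were listed separately, with 9 of 11 in the table. In KO cells 3 were higher and 2 lower in both vector groups, a share near that of all genes called (59.0% and 58.9%). Tal1, a class II partner, was higher by 0.74 and 0.80, its relative Lyl1 by 0.51 and 0.37, and the bridging factor Lmo2 by 0.64 and 1.42. The inhibitor Id3 was lower by 0.17 and 0.29, and the corepressor gene Cbfa2t3 by 0.34 and 0.33. Lmo2 was also higher with β-catenin in KO cells (0.72) and not in WT cells (-0.061, not called), and this difference of 0.78 was itself called. The median over the list in KO cells was -0.0030 in ERT2 and 0.063 in Cre-ERT2 libraries.

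Ebf1 (ENSMUSG00000057098, chr11:44617317-45008091, plus strand), the pioneer factor of the B lineage, had levels of 14.03, 14.02 and 13.96 in ERT2 WT and 14.10, 14.16 and 14.09 in Cre-ERT2 WT libraries. In KO cells it stood at 13.95, 13.95 and 13.97 with ERT2 and at 13.87, 13.85 and 13.94 with Cre-ERT2. Both β-catenin comparisons were free of overlap, with the Cre-ERT2 values above ERT2 in WT cells and below ERT2 in KO cells. The difference was 0.11 in WT cells (SE 0.028, adjusted p = 0.0177) and -0.072 in KO cells (SE 0.028, adjusted p = 0.120, not called). The difference between these was called at -0.19 (SE 0.039, adjusted p = 0.0175), where 4.55% of genes had a larger absolute value. Without ERT2 WT replicate 3 (0.093, adjusted p = 0.0674) or Cre-ERT2 WT replicate 2 (0.093, adjusted p = 0.0787) the rise in WT cells was no longer called, and without Cre-ERT2 KO replicate 3 the KO difference became called (-0.098, adjusted p = 0.0365). KO cells were lower by 0.23 (difference -0.23, SE 0.028, adjusted p = 1.13e-05) with Cre-ERT2, a value that was -0.13 under quantile normalization (adjusted p = 0.00162). Without Cre, the KO and WT groups overlapped (difference -0.045, adjusted p = 0.177), and this value was 0.049 under quantile normalization (adjusted p = 0.171) and -0.078 with median centring (adjusted p = 0.0389).

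Foxo1 (ENSMUSG00000044167, chr3:52268336-52353221, plus strand) encodes the forkhead factor that AKT signaling keeps out of the nucleus. Its levels were 13.68, 13.73 and 13.62 in ERT2 WT, 13.64, 13.70 and 13.65 in Cre-ERT2 WT, 13.54, 13.56 and 13.58 in ERT2 KO and 13.35, 13.33 and 13.42 in Cre-ERT2 KO libraries. The WT groups overlapped, ERT2 KO lay below both, and Cre-ERT2 KO lay lowest. β-catenin left a difference of -0.010 in WT cells (adjusted p = 0.895, 95% CI -0.079 to 0.058) and one of -0.19 in KO cells (SE 0.031, adjusted p = 0.00127). The difference between backgrounds, -0.18 (SE 0.044, adjusted p = 0.0367), was called with all libraries and lost its call when any of 10 of the 12 libraries was left out, with values from -0.15 to -0.21 and adjusted p from 0.0165 to 0.0898; it stayed called only without ERT2 WT replicate 2 or Cre-ERT2 KO replicate 3. KO cells had less Foxo1 by 0.12 without Cre (difference -0.12, adjusted p = 0.00672; -0.063 and adjusted p = 0.0920 under quantile normalization, which ended the call) and by 0.30 with Cre (difference -0.30, adjusted p = 3.38e-06).

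Foxo3, Foxo4 and Foxo6 were higher in KO cells where Foxo1 was lower. In ERT2 libraries the differences were 0.27 for Foxo3, 0.27 for Foxo4 and 0.48 for Foxo6, and in Cre-ERT2 libraries 0.28, 0.16 and 0.35. Foxo6 was also lower with β-catenin in KO cells (-0.22). Of 25 genes known as targets of Foxo factors, all in the table, 9 were higher and 14 lower in ERT2 KO cells. With Cre these counts were 8 and 14. Over all genes, 29.8% were called higher and 29.3% lower in ERT2 libraries, and 30.4% and 28.6% in Cre-ERT2 libraries. The chemokine receptor gene Ccr7 was lower by 1.24 and 1.43, the insulin receptor substrate gene Irs2 by 0.94 and 1.04, and Syk by 0.89 and 0.52. Il7r, the receptor gene for the cytokine that pre-B cells need, was lower by 0.82 and 0.93. The insulin receptor gene Insr (0.59 and 0.51), the cyclin gene Ccng2 (0.59 and 0.50), Klhl24 (0.48 and 0.51) and Rag2 (0.38 and 0.44) were higher. The list therefore moved in both directions, with medians of -0.11 and -0.13. With β-catenin, 6 were higher and 4 lower in WT cells and 8 and 7 in KO cells, beside 11.9% and 12.6% of all genes called. Among them were the chemokine receptor genes Ccr7 (0.39 and 0.20) and Cxcr4 (0.29 and 0.54) and, downward, Klf2 (-0.28 and -0.42). Without ERT2 WT replicate 2, 6 targets were called in WT cells instead of 10. Leaving out ERT2 KO replicate 1 or 2, or Cre-ERT2 KO replicate 2, left 9 called in KO cells instead of 15.

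Pax5 (ENSMUSG00000014030, chr4:44524757-44710487, minus strand), the guardian of B cell identity, had levels of 13.80, 13.76 and 13.74 in ERT2 WT and 13.57, 13.56 and 13.50 in Cre-ERT2 WT libraries. The KO libraries gave 13.78, 13.71 and 13.71 with ERT2 and 13.52, 13.41 and 13.38 with Cre-ERT2. Every Cre-ERT2 value lay below every ERT2 value, and within each vector the WT and KO groups overlapped. Pax5 fell with β-catenin by 0.22 in WT cells (SE 0.035, adjusted p = 0.00115) and by 0.30 in KO cells (SE 0.035, adjusted p = 0.000102), or by 14.3% and 18.7% unlogged. Larger absolute differences were held by 2.92% and 1.85% of genes. The responses in WT and KO cells were not shown to differ (-0.076, adjusted p = 0.486, 95% CI -0.18 to 0.032). KO cells had a difference of -0.030 without Cre (adjusted p = 0.488), which was 0.0083 under quantile normalization. With Cre the KO difference of -0.11 was called (adjusted p = 0.0199) although the groups overlapped, and the call ended without Cre-ERT2 WT replicate 1 or 2 or Cre-ERT2 KO replicate 2 or 3 (-0.080 to -0.097, adjusted p from 0.0635 to 0.0820).

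Genes known to be activated by Pax5 did not follow its β-catenin pattern as a list. Of 20 such genes, all in the table, 6 were higher and 2 lower with β-catenin in WT cells, and 6 and 3 in KO cells. Medians were 0.051 and 0.058, and 11.9% and 12.6% of all genes were called. Those higher in WT cells were led by Slamf6 (0.36), Ikzf3 (0.29), Irf4 (0.26) and Bach2 (0.26), and those lower were Sdc4 (-0.42) and the kinase gene Blk (-0.30). In KO cells the same list had 16 genes lower and 1 higher, with and without Cre. Over all genes, 29.3% were called lower in ERT2 and 28.6% in Cre-ERT2 libraries, and 29.8% and 30.4% higher. The lower genes include the edited gene Ikzf3 (-0.65 and -0.70). Medians of the list were -0.59 (ERT2) and -0.51 (Cre-ERT2), while Pax5 itself was lower by no more than 0.11. Blk was lower by 3.81 and 3.60, the ETS factor gene Spib by 2.80 in each, the proteoglycan gene Sdc4 by 1.77 and 1.58, and Cd79a, the antigen receptor signaling subunit, by 0.79 and 0.76. Irf8 was the exception, higher by 0.96 and 0.93. Of 16 genes known to be repressed by Pax5, 10 were in the table. With β-catenin 3 were higher and 3 lower in WT cells and 3 and 1 in KO cells, with medians of -0.025 and 0.033. Of all genes, 11.9% and 12.6% were called. Prdm1, which encodes the plasma cell regulator Blimp-1, was higher by 0.66 and 0.64, the T cell adaptor gene Grap2 by 0.39 and 0.27, and the costimulatory receptor gene Cd28 by 0.44 and 1.96. For Cd28 the difference between backgrounds, 1.52, was called. The falls in WT cells were Ccl9 (-0.25), Notch1 (-0.17) and Sdc1 (-0.17), and the fall in KO cells was Sdc1 (-0.11). Ccl9 was weakly expressed, with means of 4.03 in ERT2 WT and 3.77 in Cre-ERT2 WT libraries. In KO cells 2 of the 10 were higher and 6 lower without Cre, beside 29.8% and 29.3% of all genes. These were led by Cd28 (0.39) and Cd47 (-1.14).

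**Figure D3:**
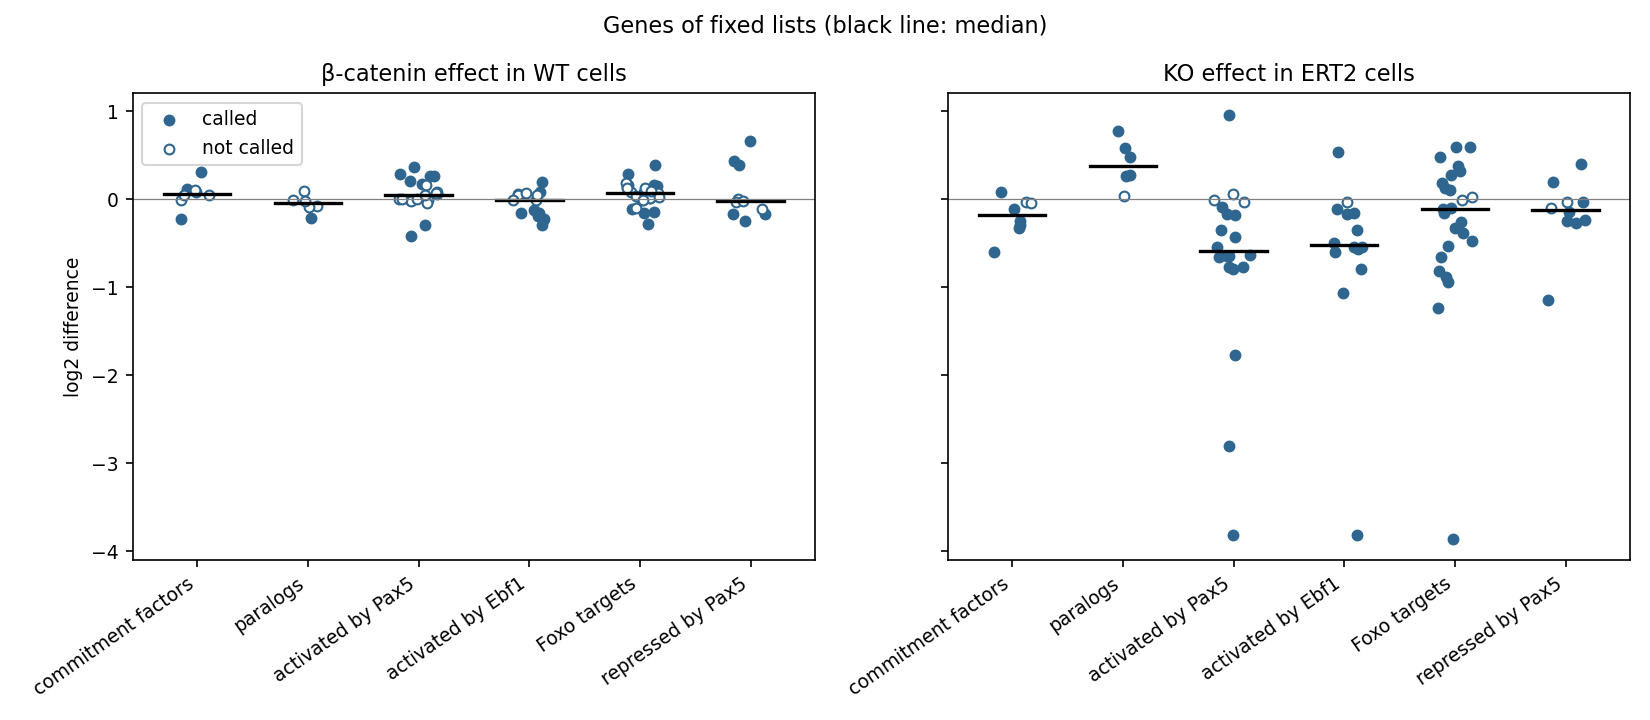
Log2 differences of the commitment factors, their paralogs and genes of their known target lists, for β-catenin in WT cells (left) and KO against WT in ERT2 libraries (right). Each point is a gene, filled when called, and the black line is the list median; the Pax5-activated list has a median of 0.051 on the left and -0.59 on the right, and some genes stand in several lists.

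Ebf1-activated genes were listed as well, with 14 of 15 in the table, of which Pax5, Foxo1 and Pou2af1 are themselves commitment factors and several, such as Blk and Cd79a, are shared with the Pax5 list. In KO cells 12 were lower and 1 higher with each vector, with medians of -0.52 and -0.51. Over all genes, 29.3% were called lower in ERT2 and 28.6% in Cre-ERT2 libraries, and 29.8% and 30.4% higher. Cd24a, which encodes the heat-stable antigen of early B cells, was lower by 1.07 and 1.32, and the exception Cd53 was higher by 0.53 and 0.34. Vpreb1 and Vpreb2, surrogate light chain genes, were lower by 0.54 and 0.57 in ERT2 libraries, but as near-identical copies their values are uncertain. With β-catenin 2 were higher and 6 lower in WT cells and 1 and 5 in KO cells, beside 11.9% and 12.6% of all genes called. The falls included Cd79b (-0.12 and -0.18).

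Pou2f1 (ENSMUSG00000026565, chr1:165865154-166002678, minus strand) encodes the widely expressed octamer-binding protein Oct-1. Its levels were 11.54, 11.63 and 11.70 in ERT2 WT, 11.67, 11.75 and 11.77 in Cre-ERT2 WT, 11.35, 11.35 and 11.43 in ERT2 KO and 11.55, 11.55 and 11.52 in Cre-ERT2 KO libraries. In order, Cre-ERT2 WT was highest and ERT2 WT next, then Cre-ERT2 KO and last ERT2 KO, and ERT2 WT overlapped both of its neighbours. KO cells were lower by 0.25 (difference -0.25, SE 0.040, adjusted p = 0.000189) without Cre and by 0.18 (difference -0.18, adjusted p = 0.00165) with Cre. With Cre-ERT2, Pou2f1 was higher by 0.16 in KO cells (SE 0.040, adjusted p = 0.0193). That call was lost without ERT2 KO replicate 1 or 2 or Cre-ERT2 KO replicate 1 or 2 (adjusted p from 0.0570 to 0.0747). In WT cells the difference was 0.10 (adjusted p = 0.135), called at 0.14 without ERT2 WT replicate 3 (adjusted p = 0.0448).

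Pou2f2, the Oct-2 gene of the B lineage, had the opposite sign to Pou2f1 in each of these 4 comparisons. It was higher in KO cells by 0.58 without Cre and 0.53 with Cre, and lower with β-catenin by 0.21 in WT and 0.26 in KO cells. Its mean was 7.55 ± 0.039 in ERT2 WT, 7.34 ± 0.024 in Cre-ERT2 WT, 8.13 ± 0.064 in ERT2 KO and 7.87 ± 0.055 in Cre-ERT2 KO libraries (SD, n = 3).

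Pou2af1 (ENSMUSG00000032053, chr9:51213708-51240080, plus strand), which encodes the coactivator of both octamer proteins, had the largest KO difference of the 8. Its levels were 14.29, 14.26 and 14.24 in ERT2 WT, 14.35, 14.34 and 14.33 in Cre-ERT2 WT, 13.66, 13.66 and 13.67 in ERT2 KO and 13.61, 13.60 and 13.62 in Cre-ERT2 KO libraries. No group overlapped another, with Cre-ERT2 WT highest, then ERT2 WT and ERT2 KO, and Cre-ERT2 KO lowest. KO cells were lower by 0.60 without Cre (difference -0.60, SE 0.018, adjusted p = 1.46e-11) and by 0.73 with Cre (difference -0.73, SE 0.018, adjusted p = 2.16e-12), or 34.0% and 39.8% unlogged. A larger absolute difference was held by 5.32% of genes in ERT2 and 3.98% in Cre-ERT2 libraries. β-catenin gave 0.078 in WT cells (SE 0.018, adjusted p = 0.0118; 0.073 and adjusted p = 0.0506 without Cre-ERT2 WT replicate 1) and -0.056 in KO cells (adjusted p = 0.0596). The backgrounds differed by -0.13 (SE 0.025, adjusted p = 0.00845).

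Foxp1 (ENSMUSG00000030067, chr6:98925338-99522721, minus strand), a forkhead repressor needed for early B cell development, stood at 13.32, 13.31 and 13.21 in ERT2 WT, 13.32, 13.34 and 13.32 in Cre-ERT2 WT, 12.93, 12.96 and 12.98 in ERT2 KO and 12.97, 13.01 and 12.98 in Cre-ERT2 KO libraries. All KO values lay below all WT values, and within each background the vectors overlapped. Foxp1 was lower in KO cells by 0.32 (difference -0.32, SE 0.029, adjusted p = 7.37e-07) and 0.34 (difference -0.34, SE 0.029, adjusted p = 4.47e-07). β-catenin differences of 0.047 (95% CI -0.016 to 0.11) and 0.031 (-0.032 to 0.093) were not called. Its paralog Foxp4 showed KO differences of 0.040 and 0.0081, neither called.

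**Figure D4:**
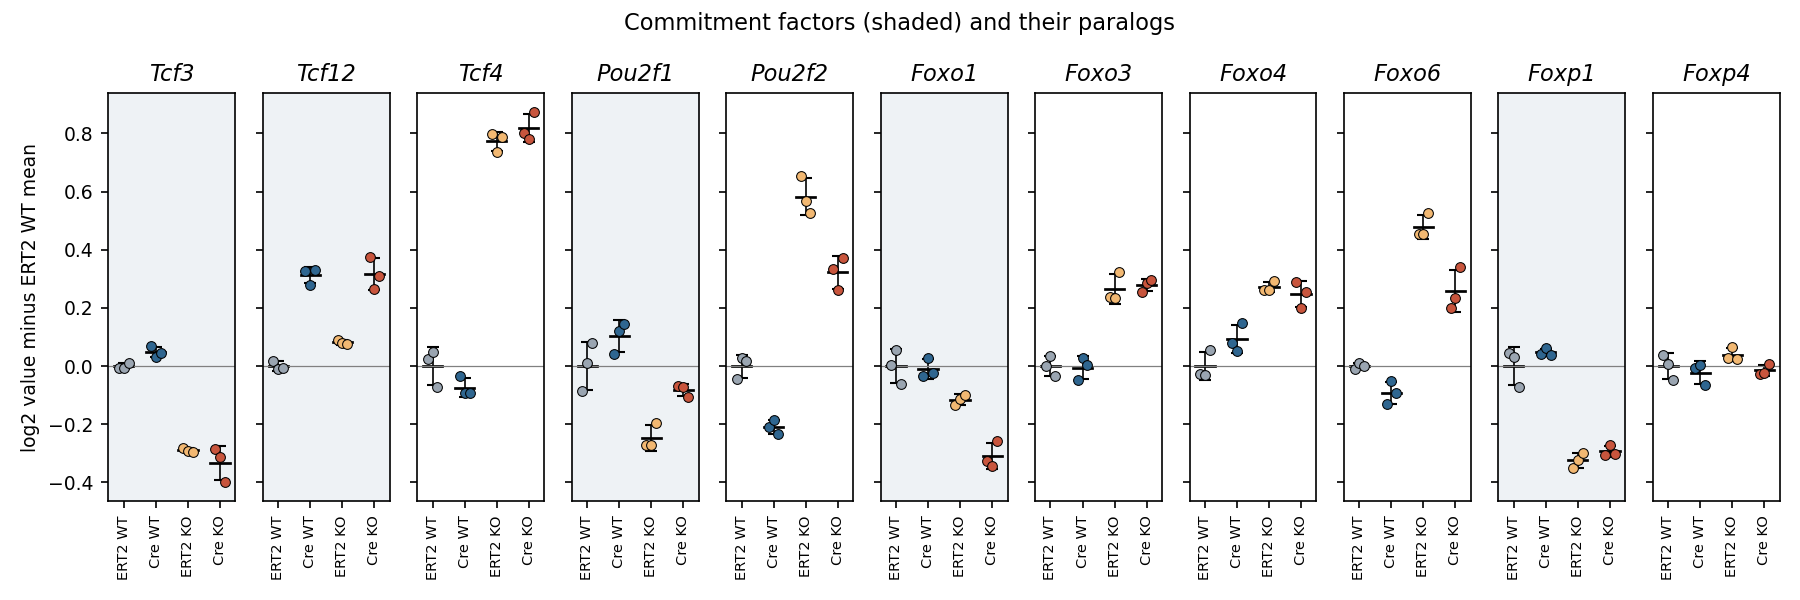
Log2 values of Tcf3, Tcf12, Pou2f1, Foxo1 and Foxp1 (shaded panels) and the 6 paralogs in the table, each minus its own ERT2 WT mean. Points are libraries, bars are group means and error bars the SD (n = 3). Tcf4, Pou2f2, Foxo3, Foxo4 and Foxo6 have KO means above the WT mean of the same vector, whereas Tcf3, Pou2f1, Foxo1 and Foxp1 have KO means below it. The factor Tcf12 has KO means above it by 0.082 (ERT2) and 0.0046 (Cre-ERT2, not called). Foxp4 lies above it by 0.040 and 0.0081, neither called.

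Of 20 paralogs listed for the 8 factors, 6 were in the table. Of these, 5 were higher in KO cells with each vector, beside 29.8% (ERT2) and 30.4% (Cre-ERT2) of all genes, and none was lower. The same 5 to 0 split was found with median centring and with quantile normalization. The median paralog difference was 0.38 in ERT2 and 0.32 in Cre-ERT2 libraries.

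The difference between backgrounds was called for 3 of the 8 factors (Ebf1, Foxo1 and Pou2af1), all lower, beside 4.53% of genes (2.71% higher and 1.82% lower); the Foxo1 call ended on omission of any of 10 libraries. In each, Cre-ERT2 KO was the lowest of the 4 groups. The median of the 8 was -0.084, and over all genes it was 0.0011. Setting Cre-ERT2 KO beside ERT2 WT, the factors differed by -0.66 for Pou2af1, -0.33 for Tcf3, -0.33 for Pax5, -0.31 for Foxo1, -0.29 for Foxp1, -0.12 for Ebf1, -0.082 for Pou2f1 and 0.32 for Tcf12, as differences of means with no test.

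**Figure D5:**
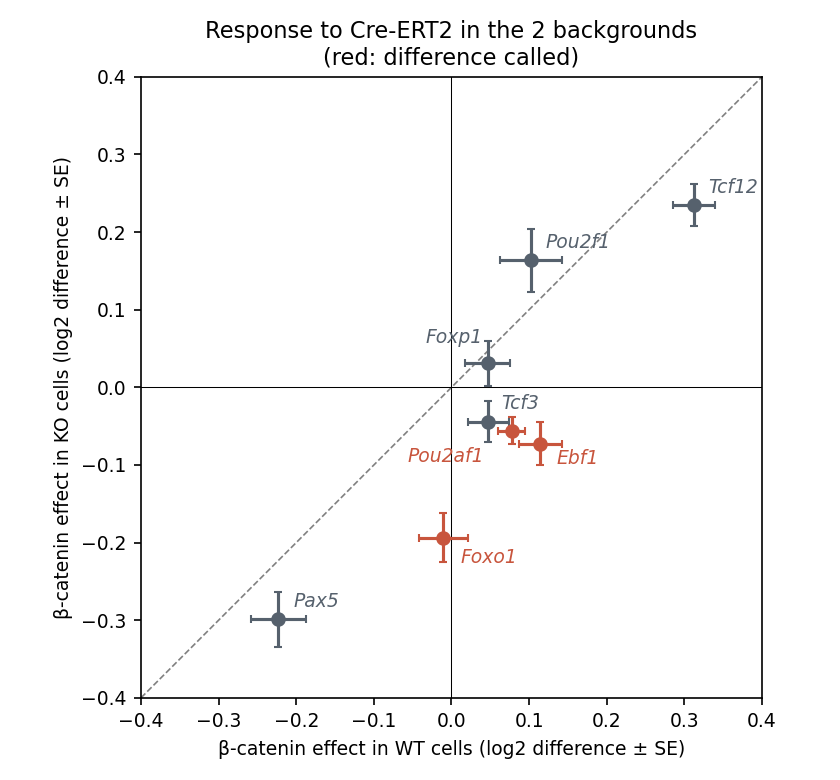
Log2 difference with β-catenin in WT cells (horizontal) against that in KO cells (vertical) for the 8 factors, with SE; the dashed line marks equal response. Ebf1, Foxo1 and Pou2af1, in red, lie below the line by 0.19, 0.18 and 0.13 and passed the test of the difference. The Foxo1 call ended on omission of any of 10 of the 12 libraries.

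The genes whose log2 values tracked each factor most closely over the 12 libraries were listed by Pearson r, as a description, since the 12 points share their groups. Pou2af1 was tracked by Cd24a (0.999), Ly6d (0.998) and Gm2a (0.997), Tcf3 by Wdr1 (0.995), Fam168b (0.994) and Bcl7a (0.993), and Foxp1 by Rtfdc1 (0.992), Tubb5 (0.991) and P2rx3 (0.990). Pou2f1 went with Tsg101 (0.973), Nck1 (0.967) and Tdrd3 (0.966), Foxo1 with Btbd1 (0.964), Fbxo45 (0.952) and Ddx54 (0.951), and Ebf1 with Suz12 (0.959), Nxt2 (0.949) and Gmfb (0.947). Closest to Tcf12 were Tmem255a (0.981), Cd69 (0.966) and Itpr2 (0.957), and closest to Pax5 were Banf1 (0.967), Piezo1 (0.966) and Esr1 (0.945). Reads from the estrogen receptor domain of either vector and from endogenous Esr1 cannot be told apart at this gene. Among the 8 factors themselves, r was 0.985 for Tcf3 with Pou2af1, 0.980 for Pou2af1 with Foxp1 and -0.877 for Pax5 with Tcf12.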

How the data were processed

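Poly(A) RNA of 12 libraries was sequenced. The authors' methods give Salmon for quantification, STAR for alignment (mm10, GRCm38) and DESeq2 for analysis, and the submitters' processing notes name Salmon 1.4.0, STAR 2.7.6 and DESeq2 1.30.1. The deposited table holds 1 normalized log2 value per gene and library for 12151 genes. The exact transformation is not given in the sources used here, counts were not used here and depth is unknown. A compressing transformation would understate differences of weakly expressed genes.

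Groups were taken from sample titles. Using limma 3.58.1 (R 4.3.3), a linear model of 4 group means covered all 12 libraries (lmFit, eBayes with trend), with Benjamini-Hochberg adjustment over all genes and no filter. The deposited log2 values were used without a pseudocount. Scripts were tested on simulated data. The alternatives were a pseudocount of 1 on unlogged values, omission of genes under the 25 percentile of means, median centring, quantile normalization, no trend, a replicate block, the compared libraries alone, an adjusted p under 0.01, and omission of each library.

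The members and lists were chosen with earlier results of these data known. Lists came from general knowledge and were described by counts and medians without a list test. Named genes were the 8 factors, Ikzf1, Ikzf3 and Ctnnb1, up to 4 called rises and 4 falls per list and comparison, and the 3 genes most correlated with each factor. Some genes that this rule names are not reported here. Positions are from GENCODE vM21 (GRCm38); all 8 factor IDs matched it. Guides were read from the study's supplementary table and promoters from RefSeq (GRCm38.p6).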

Additional observations from a re-analysis of the deposited data

Results flagged for a closer look

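For 3 of the 8 factors, the 2 backgrounds responded differently to Cre-ERT2, by the limma test of the difference itself. The difference was -0.19 for Ebf1 (adjusted p = 0.0175), -0.18 for Foxo1 (adjusted p = 0.0367) and -0.13 for Pou2af1 (adjusted p = 0.00845) on the log2 scale. Ebf1 moved up by 0.11 in WT cells and had a difference of -0.072 in KO cells. Group means of Pou2af1 moved from 14.26 to 14.34 in WT and from 13.66 to 13.61 in KO cells, and those of Foxo1 from 13.68 to 13.67 and from 13.56 to 13.37 in the same order (n = 3). The Foxo1 call ended on omission of any of 10 of the 12 libraries. Groups of 3 libraries were too small for a search for outlying values.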

How the results depend on the processing

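Across the alternatives, 551 values of single factors kept their direction and their side of the threshold, 35 lost a call, 6 gained one and 8 changed sign. Changed signs belonged to small uncalled differences: Pax5 (0.0083) and Ebf1 (0.049) in KO against WT without Cre under quantile normalization, Tcf12 with Cre under median centring (-0.029), and others on omission of a library. Under quantile normalization, calls ended for Ebf1 with β-catenin in WT cells (0.094), Foxo1 in KO without Cre (-0.063) and Pax5 in KO with Cre (-0.078), and Pou2af1 with β-catenin in KO cells gained one (-0.083). Median centring gained calls for Ebf1 in KO without Cre (-0.078) and Pou2af1 with β-catenin in KO cells (-0.063) and ended that of Tcf12 in KO without Cre (0.050). Without the trend, Pou2af1 with β-catenin in KO cells was called (-0.056).

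At an adjusted p under 0.01, which by its construction calls fewer genes, β-catenin called 787 genes in the WT and 790 in the KO background, and the difference between backgrounds 240, with 2 of the 8 factors called in WT cells and 1 for the difference. Calls ended for Ebf1 (0.11) and Pou2af1 (0.078) in WT cells, Pou2f1 (0.16) in KO cells, Pax5 (-0.11) in KO with Cre, Tcf12 (0.082) in KO without Cre, and the differences between backgrounds of Ebf1 (-0.19) and Foxo1 (-0.18). With only the libraries compared, 934 genes were called for β-catenin in KO cells instead of 1531.

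Same-numbered replicates did not deviate together in every pair (correlations of -0.12 to 0.33), and no label says that a number marks a shared culture or day, so they were treated as sharing only a number. For β-catenin in KO cells each library correlated best with its own number (0.095 to 0.16), as a hint from the data. With a replicate block the Foxo1 difference between backgrounds was -0.18 (adjusted p = 0.0621), no longer called, and no other call on the 8 factors changed.

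Leaving out 1 library gave -0.098 to -0.053 for Ebf1 with β-catenin in KO cells and 0.093 to 0.13 in WT cells, -0.041 to 0.017 for Foxo1 in WT cells and -0.21 to -0.15 for its difference between backgrounds, -0.038 to 0.021 for that of Foxp1, -0.15 to -0.080 for Pax5 in KO with Cre, 0.067 to 0.091 for Pou2af1 in WT cells, 0.15 to 0.19 for Pou2f1 in KO cells and 0.059 to 0.14 in WT cells, and -0.024 to 0.030 and 0.076 to 0.091 for Tcf12 in KO with and without Cre. Unknown depth leaves the counting error of all these values unmeasured.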

Other observations

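Other transcription factors of early B cell development were listed apart from the 8, with 26 of 27 in the table. With β-catenin 12 were higher and 5 lower in WT cells, and 10 and 7 in KO cells, beside 11.9% and 12.6% of all genes called. Myb, needed for pro-B cell survival, was higher by 0.43 and 0.40, the HMG box gene Sox4 by 0.35 and 0.38, and Runx1 by 0.29 and 0.31. Myc was lower by 0.62 and 0.31. In KO cells 7 were higher and 13 lower without Cre, and 7 and 15 with Cre, beside 59.0% and 58.9% of all genes called. These counts include the edited genes Ikzf1, higher by 1.01 and 0.90, and Ikzf3, lower by 0.65 and 0.70. Myc (1.10 and 1.41) and Irf8 (0.96 and 0.93) were among the higher, and Irf4 (-0.77 and -0.52) and Bach2 (-0.63 and -0.72) among the lower.

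The response to Cre-ERT2 differed between backgrounds for 6 of the 26, beside 4.53% of all genes. The list includes the edited genes Ikzf1 and Ikzf3, and Ikzf1 is one of the 6 (-0.10, adjusted p = 0.0422). Ets1 rose by 0.27 in WT cells and fell by 0.10 in KO cells, a gap of -0.37. Tcf7, which encodes the TCF/LEF protein TCF-1, rose by 0.26 in WT and by 0.85 in KO cells. For Zeb2 the values were -0.37 in WT cells and -0.029, not called, in KO cells. Myc fell by 0.62 in WT and by 0.31 in KO cells, a gap of 0.31 (adjusted p = 2.70e-05). Irf4 rose by 0.26 and 0.51, a gap of 0.25 (adjusted p = 0.00214).

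Of the 12 pre-B markers, 3 were higher and 9 lower in ERT2 KO cells, beside 29.8% and 29.3% of all genes. Dntt, which encodes the template-independent polymerase TdT, was lower by 0.87 without Cre and by 0.40 with Cre, and rose with β-catenin by 0.30 in WT and 0.77 in KO cells. Cd22 was higher in KO cells (0.46 and 0.33), as were Rag1 (0.32 and 0.34) and Rag2 (0.38 and 0.44).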
